A study of Mus musculus with 6 samples.

Results

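Rab GTPases are small proteins that mark the membranes of a cell and direct the traffic of vesicles between them. The 58 genes described here are all those in the files whose mouse symbol is Rab followed by a number and at most 1 letter, out of 16871 gene numbers in all. Effectors, exchange factors and Rab-like proteins were left out by that rule. RNA sequencing was done on bone marrow-derived macrophages, grown for 7 days from the marrow of C57BL/6 mice aged 8 weeks; oxidised low-density lipoprotein (oxLDL) was then added. The 3 DKO libraries came from cells with a knockout of both ALDH2, the mitochondrial aldehyde dehydrogenase, and the LDL receptor, and the 3 LKO libraries, the control, from cells with the LDL receptor knockout alone. The LDL receptor knockout and the oxLDL were therefore shared by both groups. The sources used here state neither how the alleles were made, nor the oxLDL dose or the length of the exposure, nor whether libraries came from separate animals, so that p-values measure the spread between these libraries, which may be technical.

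A Rab protein cycles between a GDP-bound form held in the cytosol and a GTP-bound form on a membrane, where it recruits motors, tethers and other effectors. Exchange factors load GTP, GTPase-activating proteins end the active state, and a lipid anchor added after synthesis lets the protein sit in the membrane. Macrophages use Rab proteins to carry engulfed lipoproteins, particles and microbes through early and late endosomes to lysosomes, to return receptors to the surface and to release cytokines and enzymes.

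Each library held between 10760625 and 10987584 expected counts, the authors' estimates of reads per gene. The targeted gene Aldh2 stood at 7.00, 7.06 and 7.34 FPKM in DKO and at 249, 239 and 236 FPKM in LKO (edgeR log2 fold change −5.01 ± 0.06 SE). FPKM is a level scaled to transcript length and library size, so that it can be compared between genes. All 10 macrophage markers looked at were found in both groups, with summed levels between 11016 and 12236 FPKM in DKO and between 9806 and 10552 FPKM in LKO. Most of that sum was Lyz2, at 7616 ± 580 FPKM in DKO and 6105 ± 337 FPKM in LKO (SD, n = 3 each). Of the 10, 5 passed as higher in DKO, among them Csf1r, Lyz2 and Mertk, and 1 as lower, Adgre1, at 1755 ± 31.8 FPKM in DKO and 1938 ± 95.8 FPKM in LKO. Markers of some other cells that marrow cultures can hold moved too. Summed levels of 14 neutrophil markers ran from 382 to 424 FPKM in DKO and from 597 to 658 FPKM in LKO. Those of the 6 B cell markers found, Vpreb1 and Igll1 being in no file, ran from 78.6 to 86.4 FPKM in DKO and from 103 to 114 FPKM in LKO, and those of 8 stromal markers from 66.9 to 90.6 FPKM in DKO and from 40.2 to 46.1 FPKM in LKO. The 6 osteoclast markers summed to between 98.5 and 108 FPKM in DKO and between 168 and 176 FPKM in LKO, nearly all of it Acp5. The 6 megakaryocyte and platelet markers, mostly Pf4, summed to between 119 and 135 FPKM in DKO and between 103 and 109 FPKM in LKO. Summed T and NK cell markers overlapped, at 2.41 to 3.19 FPKM in DKO and 1.53 to 2.76 FPKM in LKO. So did dendritic cell markers, at 1.39 to 2.47 FPKM in DKO and 2.13 to 3.76 FPKM in LKO. Summed mast cell and basophil markers, Tpsb2 and Cma1 being in no file, were at most 0.39 FPKM in DKO and 0.69 FPKM in LKO. Levels of a bulk sample cannot tell fewer cells of a type from less RNA per cell. The part of these cell types in the Rab results was not tested.

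The summed level of the Rab genes differed between the groups by less than the spread between libraries, while 6 single members passed the test. The FPKM values of all members added up to 2135, 2146 and 2117 in DKO and to 2156, 2135 and 2113 in LKO, so that the groups overlapped and the ratio of the group means was 0.999. Of the 58 members, 46 had enough counts to be tested. In the edgeR quasi-likelihood test with Benjamini-Hochberg adjustment over all 11809 genes tested, 2 members were higher in DKO (Rab7b and Rab20) and 4 were lower (Rab4a, Rab38, Rab10 and Rab44). That is 13.0% of the tested members, beside 14.3% of all tested genes at the same adjusted p of 0.05, so the share of Rab genes called lay near that of the genome at large. By direction it was 4.35% higher and 8.70% lower, beside 7.42% and 6.88% of all tested genes. The median log2 fold change of the tested members was 0.01 and its median size 0.06, against 0.00 and 0.11 over all tested genes. Without DKO replicate 3, only 3 members passed (Rab7b, Rab4a and Rab38).

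**Figure D1:**
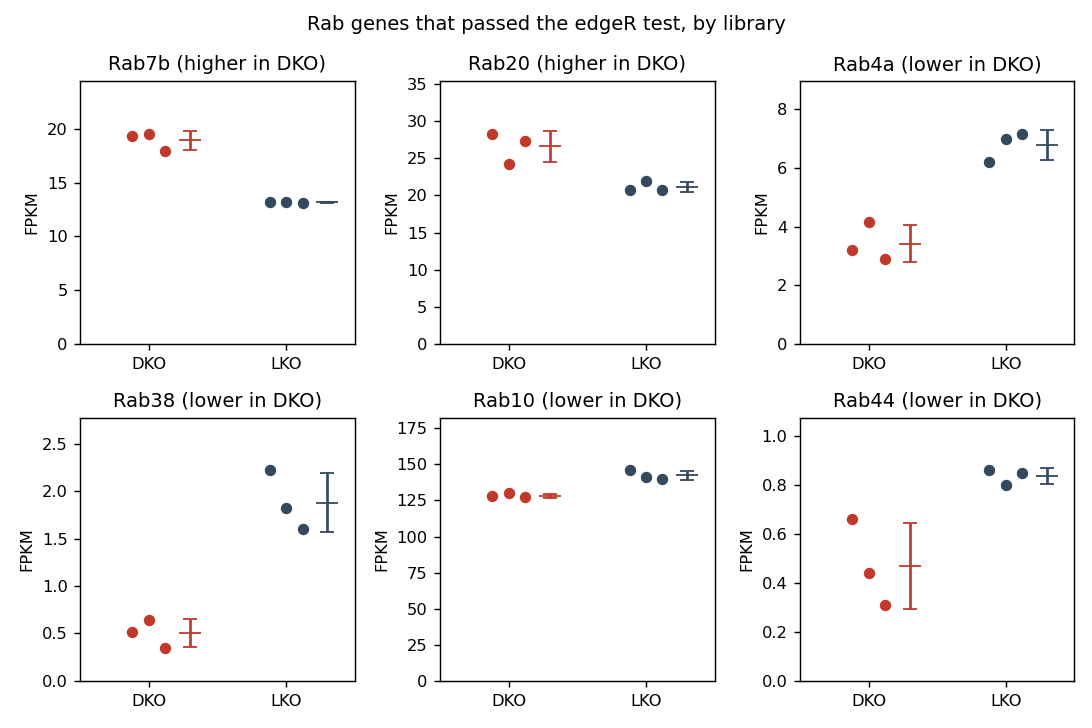
FPKM in each library of the 6 Rab genes that passed the edgeR test, with DKO left of LKO; points are libraries, and the bar beside them is the mean ± SD of 3. Rab7b and Rab20 lie higher in all 3 DKO libraries, Rab4a, Rab38, Rab10 and Rab44 lower, and in none of the 6 do the groups overlap.

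Of the 40 tested members that did not pass, 29 had a 95% interval of the log2 fold change that stayed between −0.32 and 0.32. The other 11, with mean levels of at most 8.03 FPKM, had intervals that reached past −0.32 or 0.32, so that a change of that size lay within them. Of these, the intervals of Rab3d (0.04 to 0.33), Rab33b, Rab27a and Rab37 lay wholly on one side of 0, and those of the others held 0. Among the 26 members with a mean of at least 20 FPKM, a limit chosen after the levels were seen, 2 passed (7.69%), beside 22.0% of all tested genes at such levels. The 24 others had log2 fold changes between −0.07 and 0.10. The FPKM values of the groups did not overlap for 16 of the 46 tested members (34.8%), beside 29.6% of all tested genes, and 10 of these 16 did not pass the test.

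**Figure D2:**
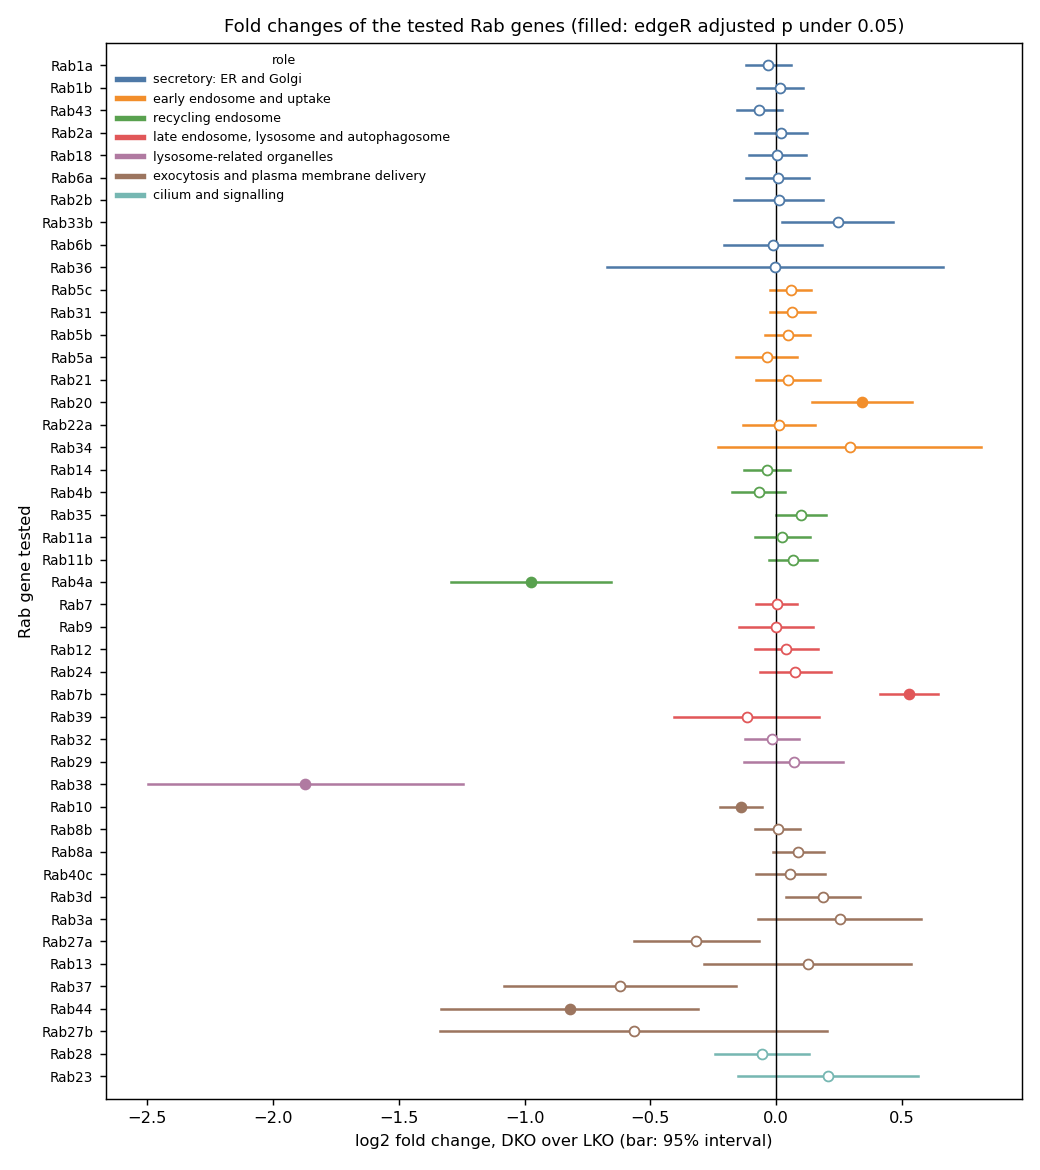
Log2 fold change, DKO over LKO, of the 46 tested Rab genes with its 95% interval, coloured by role and ordered by mean FPKM within each role; filled points passed an edgeR adjusted p of 0.05. Most members sit close to 0 with short intervals, while the called Rab38, Rab4a and Rab44 lie to the left and Rab7b to the right. Rab37 (−0.62) and Rab27b (−0.57), which did not pass, also lie to the left, with long intervals.

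In level, the family spanned from Rab5c at a mean of 293 FPKM to members close to 0. The 5 most abundant members, Rab5c, Rab7, Rab10, Rab1a and Rab1b, made up 44.0% ± 0.413 of the summed Rab FPKM in DKO and 44.5% ± 0.284 in LKO (SD, n = 3 each). Rab5c, a GTPase of early endosomes, was the highest in every library, at 293, 306 and 295 FPKM in DKO and 286, 289 and 290 FPKM in LKO. Its groups did not overlap, but the difference did not pass (log2 fold change 0.06, 95% interval −0.02 to 0.14, edgeR adjusted p = 0.394). Rab7, the main GTPase of late endosomes and lysosomes, came second at 261, 255 and 246 FPKM in DKO and 256, 256 and 254 FPKM in LKO. These values overlapped, and the 95% interval of the log2 fold change ran from −0.08 to 0.08. In LKO, Rab10 was the third, above Rab1a and Rab1b in every library. In DKO, Rab10, Rab1a and Rab1b lay between 127 and 133 FPKM and their order did not hold from library to library. At the other end, 15 members had a mean under 1 FPKM, and 12 members did not pass the filter on low counts (edgeR filterByExpr) and were not tested. The highest mean count of any of these in either group was 7.67.

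**Figure D3:**
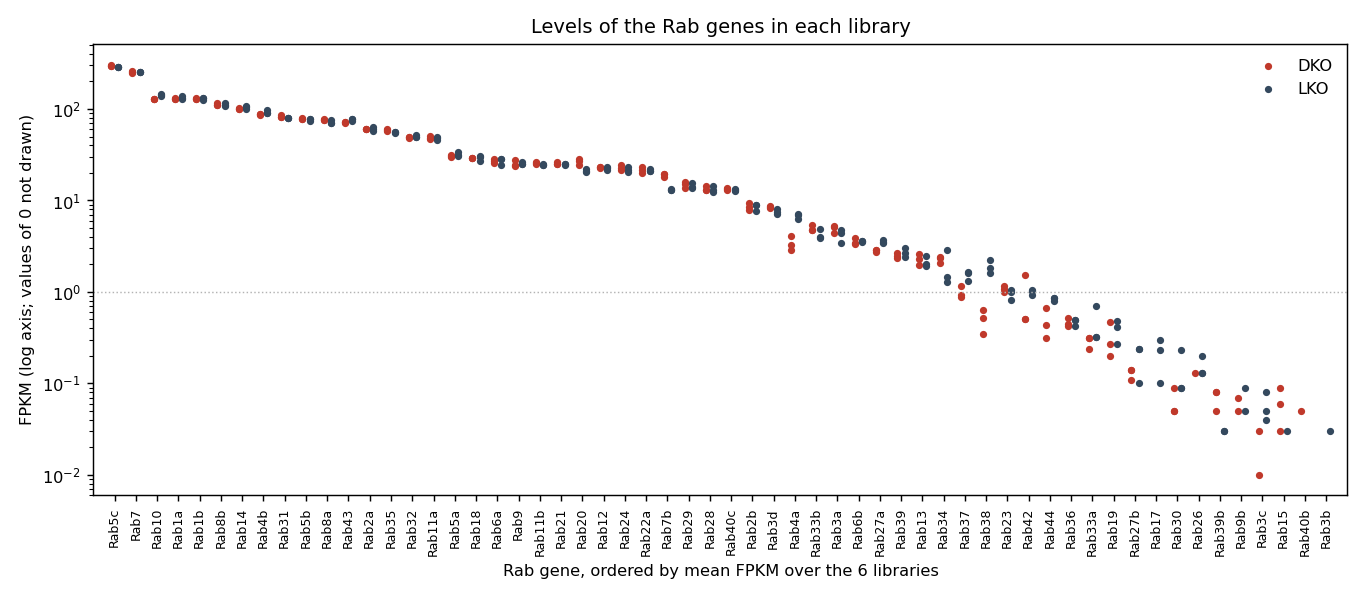
FPKM on a log axis of the 58 Rab genes in each library, ordered by mean FPKM, with DKO drawn left of LKO for each gene; values of 0 are not drawn and the dotted line marks 1 FPKM. The groups coincide for most genes above 20 FPKM, and the spread between libraries widens below 1 FPKM.

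Rab genes of the secretory pathway, which act between the endoplasmic reticulum, the Golgi and the compartments beyond, did not change past the threshold. None of the 10 tested of 13 members passed, beside 14.3% of all tested genes, with log2 fold changes between −0.07 and 0.24. The counts per class, here and below, rest on few members and are not read as traits of a class. The class held 21.8% ± 0.112 of the summed Rab FPKM in DKO and 22.2% ± 0.0438 in LKO (SD, n = 3 each). Rab1a, which moves cargo from the endoplasmic reticulum to the Golgi, had 128, 133 and 127 FPKM in DKO and 138, 132 and 130 FPKM in LKO. Rab1b, which shares that role, had 133, 128 and 128 FPKM in DKO and 126, 132 and 131 FPKM in LKO. Both pairs of groups overlapped, and the 95% intervals of their log2 fold changes ran from −0.12 to 0.06 for Rab1a and from −0.08 to 0.11 for Rab1b. Rab2a, Rab6a, Rab18, Rab43, Rab2b, Rab6b, Rab33b and Rab36 were the other tested members. Rab33b, a Golgi GTPase that also binds the autophagy factor Atg16l1, had the largest difference of the class. It stood at 4.99 ± 0.401 FPKM in DKO and 4.25 ± 0.541 FPKM in LKO (SD, n = 3 each; edgeR adjusted p = 0.141), and it did pass without LKO replicate 1 (edgeR adjusted p = 0.0328). Rab19, Rab30 and Rab33a were found at means of at most 0.450 FPKM in either group and were not tested.

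Among the 8 Rab genes of early endosomes and uptake, all tested, 1 rose and none fell, beside 7.42% and 6.88% of all tested genes. Rab20 (NCBI gene 19332), a GTPase that acts on maturing phagosomes in macrophages, had 28.3, 24.3 and 27.3 FPKM in DKO and 20.7, 22.0 and 20.8 FPKM in LKO. Every DKO library lay above every LKO library. The rise was 1.27-fold (log2 fold change 0.34 ± 0.10 SE, edgeR adjusted p = 0.0185). It did not pass in DESeq2 (adjusted p = 0.126), nor in edgeR without LKO replicate 3 (adjusted p = 0.0572), DKO replicate 1 (adjusted p = 0.0941) or DKO replicate 3 (adjusted p = 0.0728). The 3 Rab5 genes, which set the identity of early endosomes, did not pass. Beside Rab5c, Rab5b was at 78.1 ± 0.943 FPKM in DKO and 76.3 ± 1.25 FPKM in LKO, and Rab5a at 30.9 ± 0.650 FPKM in DKO and 32.0 ± 1.94 FPKM in LKO (SD, n = 3 each). Rab21, Rab22a, Rab31 and Rab34 did not pass either. The class held 26.5% ± 0.367 of the summed Rab FPKM in DKO and 25.6% ± 0.192 in LKO (SD, n = 3 each). The share of early endosome genes was higher in every DKO library, and those of the secretory, recycling and exocytosis classes were lower in every DKO library than in any LKO library. No test was made of these shares, which add up to a fixed total.

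In the recycling endosome, 1 of 6 tested members passed, beside 14.3% of all tested genes, and its close relative did not pass. Rab4a (NCBI gene 19341), which drives the fast return of receptors from early endosomes to the surface, had 3.22, 4.14 and 2.91 FPKM in DKO and 6.21, 6.98 and 7.16 FPKM in LKO. The highest DKO library lay well under the lowest LKO library. Its counts were 50, 64 and 45 in DKO and 96, 107 and 109 in LKO, a fall of 1.97-fold (log2 fold change −0.98 ± 0.15 SE, 95% interval −1.29 to −0.66, edgeR adjusted p = 9.21e-05). Rab4b, the other Rab4 gene and by far the more abundant, had 86.8, 87.1 and 88.7 FPKM in DKO and 90.5, 90.7 and 96.6 FPKM in LKO. Those groups did not overlap, but the difference was small and did not pass (log2 fold change −0.07, 95% interval −0.18 to 0.03, edgeR adjusted p = 0.424). Rab4a thus made up 3.76% ± 0.698 of the FPKM of the 2 genes in DKO and 6.82% ± 0.368 in LKO (SD, n = 3 each). Rab11a and Rab11b, which run the slower recycling route, were at 48.3 ± 1.89 and 25.7 ± 0.454 FPKM in DKO and at 47.9 ± 2.02 and 24.7 ± 0.239 FPKM in LKO, and neither passed. Rab14 and Rab35 did not pass. Rab17, a GTPase known from transcytosis in epithelia, was not tested. It had no count in any DKO library and 4, 6 and 2 counts in LKO, and it passed once the count filter was dropped (edgeR adjusted p = 0.0285). Rab15 was at most at 0.0900 FPKM in any library.

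In late endosomes, lysosomes and autophagosomes, 1 of 6 tested members passed, beside 14.3% of all tested genes. Rab7b (NCBI gene 226421) carries cargo between late endosomes and the trans-Golgi network, and in macrophages it limits Toll-like receptor signalling. It had 19.3, 19.5 and 17.9 FPKM in DKO and 13.2, 13.2 and 13.1 FPKM in LKO. The LKO libraries were nearly equal to each other, and each DKO library lay above all of them. The counts were 956, 962 and 883 in DKO and 653, 647 and 637 in LKO, a rise of 1.44-fold (log2 fold change 0.53 ± 0.06 SE, 95% interval 0.41 to 0.64, edgeR adjusted p = 6.11e-07). This was the smallest p of the family. The share of Rab7b in the FPKM of Rab7b and Rab7 was 6.93% ± 0.165 in DKO and 4.89% ± 0.00407 in LKO (SD, n = 3 each). The other tested members of the class, Rab7, Rab9, Rab12, Rab24 and Rab39, had log2 fold changes between −0.12 and 0.08, and none passed. Rab9, which returns receptors from late endosomes to the Golgi, was at 25.2 ± 1.96 FPKM in DKO and 25.4 ± 0.965 FPKM in LKO. Rab9b, Rab39b and Rab42 were not tested; Rab42 had 0.510, 1.54 and 0.510 FPKM in DKO and 1.03, 1.04 and 0.920 FPKM in LKO.

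Of the Rab genes of lysosome-related organelles, such as the pigment granule, Rab38 fell and Rab32 and Rab29 did not pass. Rab38 (NCBI gene 72433), whose loss in the chocolate mouse dilutes coat colour, had 0.520, 0.640 and 0.350 FPKM in DKO and 2.22, 1.82 and 1.6 FPKM in LKO. It was a scarce transcript, with 9, 11 and 6 counts in DKO and 38, 31 and 27 counts in LKO, and the groups lay far apart. The fall was 3.66-fold, the largest in the tested members (log2 fold change −1.87 ± 0.30 SE, 95% interval −2.50 to −1.25, edgeR adjusted p = 0.00013). Rab32, the relative that shares pigment cargo with Rab38, had 48.7, 49.5 and 49.8 FPKM in DKO and 49.6, 52.3 and 48.8 FPKM in LKO. Its groups overlapped, with a 95% interval of the log2 fold change of −0.12 to 0.09. Rab38 made up 1.01% ± 0.292 of the FPKM of the 2 genes in DKO and 3.60% ± 0.593 in LKO (SD, n = 3 each). Rab29, a partner of the kinase Lrrk2, was at 15.0 ± 1.07 FPKM in DKO and 14.4 ± 0.895 FPKM in LKO. Of 6 melanocyte markers, Tyrp1, Dct, Mlana and Sox10 were in no file, and the other 2 summed to between 4.26 and 4.96 FPKM in DKO and between 3.34 and 4.08 FPKM in LKO.

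**Figure D4:**
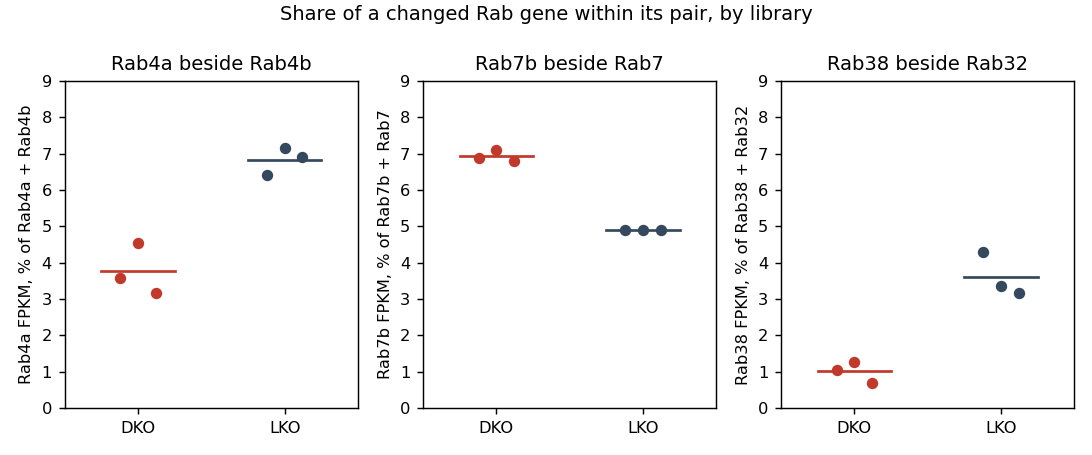
Share of Rab4a, Rab7b and Rab38 in the summed FPKM of each gene and its close relative, in percent, for each library (points) with the group mean (line), DKO left of LKO. Rab4a and Rab38 take a smaller share in every DKO library and Rab7b a larger one.

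Rab genes of exocytosis and delivery to the plasma membrane had 2 members that fell and none that rose among 11 tested. Of all tested genes, 6.88% fell and 7.42% rose, so a count this small does not set the class apart. Rab10 (NCBI gene 19325), which brings membrane proteins including Toll-like receptor 4 to the surface, had 128, 130 and 127 FPKM in DKO and 146, 141 and 140 FPKM in LKO. The groups did not overlap, though the fall was only 1.10-fold (log2 fold change −0.14 ± 0.04 SE, edgeR adjusted p = 0.0213). In edgeR it did not pass without LKO replicate 2 (adjusted p = 0.0633), DKO replicate 1 (adjusted p = 0.0579), DKO replicate 2 (adjusted p = 0.0595) or DKO replicate 3 (adjusted p = 0.0805). Rab10os, an antisense gene that overlaps Rab10, was at 5.83 ± 1.29 FPKM in DKO and 5.92 ± 0.678 FPKM in LKO, and without a stated strand setting reads of the overlap cannot be told apart. Rab44 (NCBI gene 442827), a large atypical Rab protein known from mast cells and osteoclasts, had 0.660, 0.440 and 0.310 FPKM in DKO and 0.860, 0.800 and 0.850 FPKM in LKO. DKO replicate 1 lay closer to the LKO libraries than the other DKO libraries did. Its counts were 30, 20 and 14 in DKO and 39, 36 and 38 in LKO, a fall of 1.77-fold (log2 fold change −0.82 ± 0.25 SE, edgeR adjusted p = 0.0269). It did not pass in DESeq2 (adjusted p = 0.15), nor in edgeR without LKO replicate 1 (adjusted p = 0.0646), LKO replicate 3 (adjusted p = 0.0658), DKO replicate 2 (adjusted p = 0.0917) or DKO replicate 3 (adjusted p = 0.167).

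Among the other exocytic members, Rab37, Rab27a and Rab3d came nearest to the threshold, and the groups of each did not overlap. Rab37, found on secretory granules, was at 0.987 ± 0.151 FPKM in DKO and 1.53 ± 0.191 FPKM in LKO (SD, n = 3 each; edgeR adjusted p = 0.0681). Rab27a, which docks secretory lysosomes and granules at the plasma membrane, was at 2.83 ± 0.0987 FPKM in DKO and 3.56 ± 0.155 FPKM in LKO (SD, n = 3 each; edgeR adjusted p = 0.0828). Rab3d, of secretory granules, was at 8.52 ± 0.215 FPKM in DKO and 7.55 ± 0.466 FPKM in LKO (SD, n = 3 each; edgeR adjusted p = 0.0875). Rab8a and Rab8b, which carry vesicles from the Golgi to the surface, were at 76.2 ± 1.80 and 111 ± 3.67 FPKM in DKO and at 72.2 ± 3.16 and 112 ± 5.07 FPKM in LKO. Rab3a, Rab13, Rab27b and Rab40c did not pass, and Rab3b, Rab3c, Rab26 and Rab40b, at most at 0.200 FPKM in any library, were not tested. Of the 2 members linked to cilia and signalling, Rab23, which restrains Hedgehog signalling, was at 1.09 ± 0.0850 FPKM in DKO and 0.953 ± 0.129 FPKM in LKO. Rab28 was at 13.5 ± 0.758 FPKM in DKO and 13.3 ± 1.06 FPKM in LKO, and neither passed.

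The genes that load, switch and read Rab proteins were followed in 5 lists, with 110 of 119 genes in the files tested. With Myrip of 120 listed genes in no file, 4 of the tested were higher and 14 lower in DKO, which is 3.64% and 12.7%, beside 7.42% and 6.88% of all tested genes. The median log2 fold change was −0.02. By DESeq2, 4 were higher and 9 lower. In limma on log2(FPKM + 1) without a filter, with fewer calls, 3 were higher and 3 lower, so falls did not outnumber rises there. Shares of all genes by direction are not given for these alternatives. The exchange factors gave 2 higher and 3 lower of 37, the GTPase-activating proteins 1 and 5 of 32, the effectors 1 and 5 of 30, the prenylation and recycling genes none and 1 of 8, and none of the 3 genes for Rab kinases and a Rab phosphatase passed.

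The adjusted p of the 18 lay between 6.42e-09 and 0.0391 (edgeR). The largest of these changes was in Dennd2a, an exchange factor for Rab9 in human cells, at 1.37 ± 0.156 FPKM in DKO and 4.07 ± 0.188 FPKM in LKO (SD, n = 3 each; log2 fold change −1.56 ± 0.12 SE, edgeR adjusted p = 6.42e-09). Its Rab, Rab9, was among the members that did not pass. Rin2, an exchange factor for Rab5, rose to 11.5 ± 0.780 FPKM in DKO, against 8.57 ± 0.316 FPKM in LKO. Dennd1b, an exchange factor for Rab35, fell to 4.79 ± 0.309 FPKM in DKO, against 5.87 ± 0.278 FPKM in LKO, and Sbf2 rose to 32.1 ± 2.34 FPKM in DKO, against 27.8 ± 0.476 FPKM in LKO. Tbc1d4, a GTPase-activating protein for Rab10 in fat and muscle cells, rose to 10.3 ± 0.560 FPKM in DKO, against 7.76 ± 0.615 FPKM in LKO. Tbc1d16, which acts on Rab4a in human cells, fell to 3.61 ± 0.180 FPKM in DKO, against 4.55 ± 0.0404 FPKM in LKO. Rabgap1l fell to 2.45 ± 0.189 FPKM in DKO, against 3.42 ± 0.457 FPKM in LKO, and Tbc1d22a to 36.1 ± 1.43 FPKM in DKO, against 41.1 ± 0.817 FPKM in LKO.

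Among the effectors, Rab11fip5, which binds Rab11, rose to 60.1 ± 2.63 FPKM in DKO, against 49.7 ± 3.26 FPKM in LKO. Optn, the Rab8 effector optineurin, fell to 10.2 ± 0.367 FPKM in DKO, against 13.5 ± 1.44 FPKM in LKO. Mical1, an actin-oxidising enzyme that Rab proteins bind, fell to 1.44 ± 0.170 FPKM in DKO, against 2.31 ± 0.260 FPKM in LKO. Inpp5b, an inositol phosphatase, fell to 21.1 ± 0.594 FPKM in DKO, against 24.5 ± 0.580 FPKM in LKO. Chm, the escort protein that presents new Rab proteins for prenylation, fell to 8.60 ± 0.197 FPKM in DKO, against 10.1 ± 0.770 FPKM in LKO. Named after their values were seen, the remaining calls were falls of Rin3, Tbc1d24, Tbc1d10c, Eea1 and Rbsn, of which Eea1 and Rbsn encode tethers that Rab5 recruits to early endosomes. Eea1 was at 9.92 ± 0.589 FPKM in DKO and 11.4 ± 0.401 FPKM in LKO, and Rbsn at 5.58 ± 0.0577 FPKM in DKO and 6.53 ± 0.148 FPKM in LKO.

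The calls of 8 of these 18 genes, Dennd2a, Rin2, Dennd1b, Tbc1d4, Tbc1d16, Rab11fip5, Optn and Mical1, held in edgeR without any 1 library. Without LKO replicate 1, those of Chm (edgeR adjusted p = 0.0541), Eea1 (0.056) and Tbc1d24 (0.0588) were lost. Without LKO replicate 2, they were Chm (edgeR adjusted p = 0.16), Eea1 (0.0944), Inpp5b (0.0614), Rbsn (0.0614), Rin3 (0.104), Tbc1d10c (0.183) and Tbc1d22a (0.0773). Without LKO replicate 3, they were Rabgap1l (edgeR adjusted p = 0.0614), Rbsn (0.0881), Rin3 (0.19), Tbc1d10c (0.0851) and Tbc1d24 (0.0664). Without DKO replicate 1, they were Chm (edgeR adjusted p = 0.0657), Eea1 (0.159), Rbsn (0.09) and Rin3 (0.111). Without DKO replicate 2, they were Chm (edgeR adjusted p = 0.111), Inpp5b (0.067), Rbsn (0.0818), Rin3 (0.0811), Tbc1d10c (0.13), Tbc1d22a (0.0785) and Tbc1d24 (0.0855). Without DKO replicate 3, they were Chm (edgeR adjusted p = 0.0553), Rbsn (0.0742), Rin3 (0.0995), Sbf2 (0.0732), Tbc1d10c (0.162), Tbc1d22a (0.0844) and Tbc1d24 (0.113). Without DKO replicate 2 or DKO replicate 3, 11 of the listed genes passed.

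The members lie on 18 chromosomes, and the tested genes nearest to each called member in gene order were looked at, 5 on each side where there were so many. For Rab7b, Rab20 and Rab10 this was added after their values were seen. Of the 10 neighbours of each member, 6 for Rab10, between 0 and 2 passed, beside 14.3% of all tested genes. The nearest tested gene on one side of Rab7b on chromosome 1 was Ctse, the aspartic protease cathepsin E, with 0.520, 0.430 and 0.600 FPKM in DKO and 8.55, 10.4 and 9.73 FPKM in LKO. These 2 genes differed in opposite directions, by log2 fold changes of 0.53 for Rab7b and −4.18 for Ctse. Ikbke also passed (log2 fold change −0.16, edgeR adjusted p = 0.0186), and Rab29, the second tested gene on the other side, did not. Of the 10 tested neighbours of Rab4a none passed. Around Rab38 on chromosome 7 only Tyr passed, the pigment enzyme tyrosinase, at 4.05 ± 0.416 FPKM in DKO and 3.35 ± 0.286 FPKM in LKO (SD, n = 3 each; log2 fold change 0.28, edgeR adjusted p = 0.0429). The groups of Tyr overlapped, with 3.62 FPKM in DKO replicate 2 and 3.65 FPKM in LKO replicate 2. The nearest tested genes on one side of Rab20 were the collagen genes Col4a2 and Col4a1. Col4a1 fell (log2 fold change −0.65, edgeR adjusted p = 0.0159) but was scarce, at 0.560 ± 0.0693 FPKM in DKO and 0.883 ± 0.155 FPKM in LKO. Col4a2 did not pass (edgeR adjusted p = 0.0877), and neither did E230013L22Rik, which Rab20 overlaps. The nearest tested gene to Rab44 on one side was the cell cycle inhibitor gene Cdkn1a, which rose, at 95.4 ± 7.01 FPKM in DKO and 70.1 ± 4.99 FPKM in LKO (SD, n = 3 each; log2 fold change 0.45, edgeR adjusted p = 7.3e-06). Srsf3, near Rab44 on the same side, fell (log2 fold change −0.19, edgeR adjusted p = 0.0286). None of the 6 tested neighbours of Rab10 passed.

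**Figure D5:**
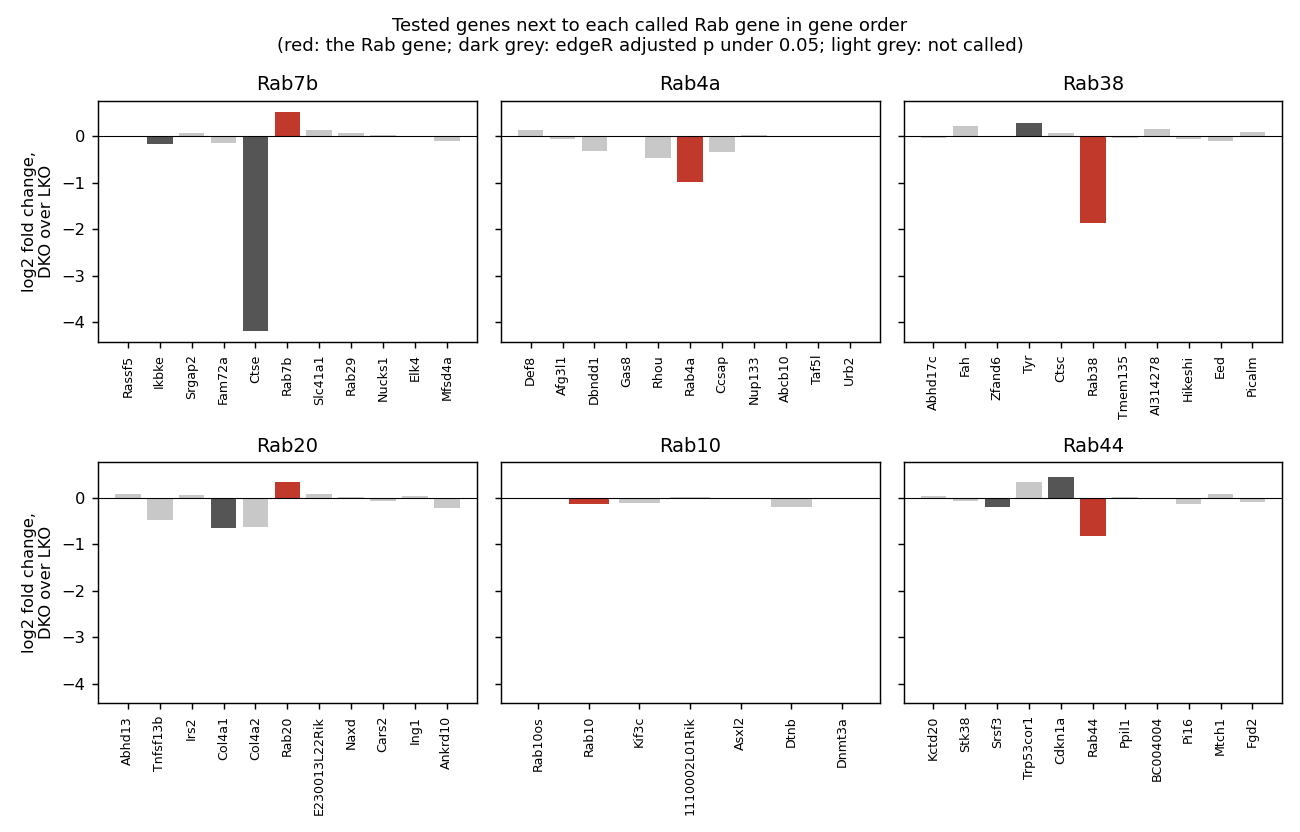
Log2 fold change, DKO over LKO, of each called Rab gene (red) and of the tested genes next to it in gene order; dark grey bars passed an edgeR adjusted p of 0.05 and light grey bars did not. Ctse, at −4.18 beside Rab7b at 0.53, is the one neighbour that moved further than the Rab gene by more than 1 log2 unit.

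Some of the deposited expected counts were fractional, here meaning further than 0.005 from a whole number. Of the 58 members, 10 had such a count in at least 1 library, among them Rab27a, Rab7 and Rab8b, and none of these 10 was among the 6 called. How the counts treat reads shared between genes is not stated, so whole counts do not show that a gene had no shared reads. The longest run of bases shared between annotated transcripts of the pairs above was 23 for Rab4a and Rab4b, 18 for Rab7b and Rab7 and 14 for Rab38 and Rab32. Promoter sequences from RefSeq (build GRCm38.p6, 250 bases before to 50 after a gene start) were at hand for 47 members, of the called ones for Rab20 and Rab10. The motif CACGTG, the core of the sites bound by the lysosomal regulators Mitf and Tfeb and by other E-box factors, reads the same on both strands. It occurred for 6 of the 47 (12.8%), beside 8.09% of all genes with a promoter in the table: Rab20, Rab5a, Rab21, Rab24, Rab23 and Rab27a. A second search on both strands, for the interferon-stimulated response element, matched 1 of the 47 (2.13%), Rab19, beside 3.99% of all genes. A match is a description of these letters and not evidence of binding. Shown are the matches within 100 bases of the gene start, for Rab20, the called member with a match, and for 3 members that did not pass, with CACGTG in capitals:
Rab20: cggccgggcaccCACGTGgtcgcagggctg
Rab21: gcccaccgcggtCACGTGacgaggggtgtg
Rab24: cggcgcccgcgtCACGTGaccgggcgtccc
Rab5a: acccggggatgtCACGTGacttcggccccg
The stretch of Rab20 lies on the minus strand at chr8:11478669-11478698, with its motif 46 bases before the start. That of Rab21 lies on the minus strand at chr10:115315604-115315633, 30 bases before the start, that of Rab24 on the minus strand at chr13:55321961-55321990, 2 bases after the start, and that of Rab5a on the plus strand at chr17:53479127-53479156, 95 bases before the start.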

How the data were processed

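The 3 DKO and 3 LKO libraries were grouped by their labels. The authors deposited an expected count per gene (an estimate that need not be whole) and FPKM (that estimate scaled to length and library size), per the file headers. Transcript length, also deposited by the authors, was not used in any test. The submitters' processing notes name Bowtie 0.12.2 and mm8. The sources used here state no counting tool, annotation version or strand setting. The lowest FPKM listed in any file was 0.01, and genes absent from a file were set to 0 there. RefSeq symbols (GRCm38.p6) were found for 16832 of 16871 gene numbers, and of 59 Rab symbols there, Rab25 was in no file. The 39 unnamed genes, at most 0.0448% of a library's counts, stayed in.

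Members, gene lists and roles were chosen with earlier results of these data known. The main test, on counts rounded to whole numbers, was edgeR 4.0.16's quasi-likelihood test in R 4.3.3, with filterByExpr, TMM and no block. Its p-values were adjusted by Benjamini-Hochberg across all 11809 tested genes, and 0.05 was the threshold. Standard errors and 95% intervals came from the fold change and its F statistic. Values are named for all called members, the 5 most abundant members, relatives of called members with the same number, Aldh2, and up to 4 called genes of smallest p per regulator list. Other Rab genes are given to account for every member. Alternatives were DESeq2 1.42.0, other normalizations, no count filter, a replicate block, limma 3.58.1 on log2(FPKM + 1) with other pseudocounts and no filter, TPM for levels, a stricter threshold, and each library left out. The code was tested on simulated data. Chi-square per degree of freedom within groups was between 1.68 and 3.71, more than counting noise gives, so no pair was treated as 1 library deposited again; this does not show separate cultures or animals.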

Additional observations from a re-analysis of the deposited data

How the results depend on the processing

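Rab7b, Rab4a and Rab38 kept their call and direction in all 16 alternatives, with adjusted p of at most 0.00434, 0.0167 and 0.0093. The log2 fold change of Rab38 lay between −2.08 and −0.32 and that of Rab4a between −1.13 and −0.49, nearest to 0 in limma with a pseudocount of 5, which compresses low values. Rab10, Rab20 and Rab44 lost their call in 5 of 16, 5 of 16 and 7 of 13 alternatives, the threshold of 0.01 included. None of the called members changed sign. Of the named members that did not pass, Rab7 lay between −0.02 and 0.02 on the log2 scale and Rab1b between −0.01 and 0.03, so that their signs changed. Members called numbered 4 by DESeq2 and 3 at a threshold of 0.01, and between 3 and 6 with 1 library left out. Genes called in all were 1141 by DESeq2, 1119 in limma on log2(FPKM + 0.1), 807 in limma without a filter and 1005 at a threshold of 0.01. Regulators called, 18 in the main test, were 10 in limma on log2(FPKM + 1) and on log2(FPKM + 0.1), 9 with a pseudocount of 5, 6 without a filter, 10 at a threshold of 0.01, and between 11 and 16 with 1 library left out. Upper quartile scaling gave 747 higher and 967 lower genes, against 876 and 813. Replicate numbers did not pair the libraries: deviations of same-numbered libraries correlated at 0.0179, −0.056 and −0.0273. With a replicate block, 1553 genes, 6 members and 16 regulators passed. The summed Rab level in DKO over LKO was between 0.994 and 1.004 with 1 library left out. Counts under about 40 per library limit what can be said of Rab38, Rab44 and Rab37. The cause of lost calls was not tested.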
